A study of Mus musculus with 12 samples.

Results

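Cultured mammary cancer cells were compared with primary tumors of the WAP-SVT/t mouse, on 6 of the 12 arrays of the study. There were 3 cell lines (ME-A, the line ME-B, and its namesake ME-B-T/t) and 3 tumors. The samples were chosen by their labels, and the lines, with 1 array each, were taken as 1 class. The tumors came from female NMRI mice, and per the labels the simian virus 40 T/t antigens are made in the epithelial cells of the mammary gland of these mice. The transgene's name refers to Wap, a milk protein gene whose promoter drives expression in that epithelium. ME-B is described as a revertant, and ME-B-T/t as a retransformed line. By their names they share an origin, so the lines are not 3 independent cultures of tumor cells. The labels give no ages, no culture conditions, and no tumor of origin for a line, and the extraction text given for the lines describes frozen tissue. The other 6 arrays held mammary glands on the first day of lactation, 3 of NMRI mice and 3 of WAP-SVT/t mice, and are used here only for the range of signals in tissue.

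A mammary tumor is a mixed tissue. Its transformed epithelial cells make keratins, junction proteins and epithelial splicing factors, and lie among macrophages, lymphocytes, blood vessels, fibroblasts and the collagen-rich matrix that fibroblasts lay down. A cell line grown from it usually keeps descendants of the tumor cells and loses the other cell types, but tumor cells can also take on mesenchymal features and make matrix themselves. The tumor suppressors p53 and RB are known targets of the large T antigen.

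Values are scaled array signals in intensity units. Signals under 57.5, the 30th percentile of all arrays, were set to that floor before log2 values were taken, and are called below the floor. Genes were compared only where at least 3 of the 6 arrays lay above the pooled median of 139.9, which left 7345 of 12393 genes. Fits that left out an array kept this choice of genes. A gene passed at a Benjamini-Hochberg adjusted p under 0.05 in limma's moderated test. The titles give each tumor its own number and code, but the labels do not say that the 3 tumors came from separate mice. A p value therefore measures only the spread between these arrays, which may be technical, and for the lines the spread between different lines. Folds against a group that lies below the floor on every array are given as at least that size. For such a gene the floor removes the spread within that group. Its SE and p value then rest on the spread of the other group and on the moderation of the test. In whole tissue, fewer cells of a type and less RNA per cell cannot be told apart.

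In all, 138 of 7345 genes were lower in the lines than in the tumors (1.88% of the genes tested) and 31 were higher (0.422%). An unadjusted p under 0.05 was found for 1230 genes. All 169 genes that passed had no overlap between lines and tumors, as did 1724 of the genes tested. The median difference over all genes tested was 0.00 on the log2 scale. The counts depended on single arrays. Without ME-A, 542 genes were lower (7.38%) and 266 higher (3.62%), and these included each of the 169. Leaving out ME-B gave 57 lower and 7 higher, and leaving out ME-B-T/t gave 91 and 17. Leaving out tumor 1 gave 67 lower (0.912%) and 9 higher (0.123%), leaving out tumor 2 gave 71 and 10, and leaving out tumor 3 gave 115 and 16. Tumor 1 also stood apart in its skeletal muscle signal, with a mean log2 level of 9.13 over 23 muscle markers against 6.20 and 6.07 in tumors 2 and 3, and in its ratio of 3-prime to 5-prime Gapdh control signals, 5.63 against 0.982 and 0.969. In the lines this ratio lay between 0.753 and 0.949. Results that rest on tumor 1 are therefore given with and without it.

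The lines were not alike. ME-B and ME-B-T/t differed by 4-fold or more in 110 of the genes tested, whereas ME-A differed that far from ME-B in 502 and from ME-B-T/t in 514. ME-A was 4-fold or more from the tumors in 274 to 394 genes, and the ME-B lines in 512 to 560. Tumor pairs differed that far in 58 to 119 genes. The spread was larger among lines than among tumors in 60.2% of genes.

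**Figure D1:**
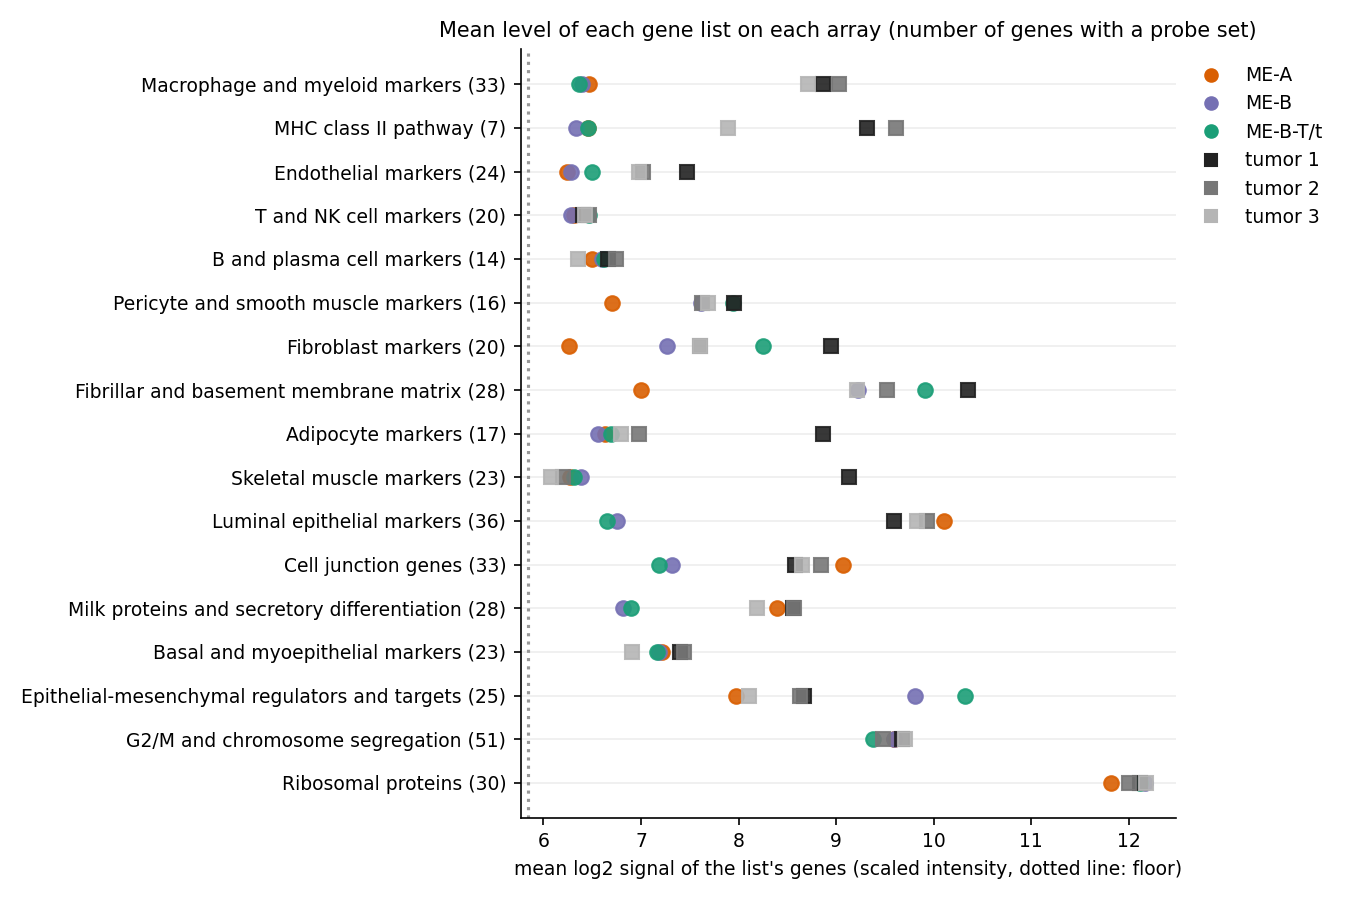
Mean log2 signal of each gene list (rows) on each of the 6 arrays, over all list genes with a probe set, whether tested or not. Circles are lines and squares are tumors. Myeloid markers lie between 6.37 and 6.47 in all lines and between 8.71 and 9.03 in the tumors, whereas luminal markers lie at 10.11 in ME-A, at 6.76 and 6.65 in the ME-B lines, and between 9.60 and 9.94 in the tumors.

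Among the 33 gene lists, the macrophage and myeloid markers had the most genes lower in the lines. Of 33 markers with a probe set, 27 were tested and 19 were lower in the lines, with none higher. The median difference over the tested markers was -2.50 on the log2 scale, against 0.00 over all genes tested. Of the 27, 21 reached the test through the tumors alone, with no line above the pooled median, so they had to be lower in the lines and their count says little by itself. With no filter on dim genes, 15 of the 33 were lower and the median was -2.35. The mean log2 level of all 33 was 6.47 in ME-A, 6.39 in ME-B and 6.37 in ME-B-T/t, and 8.86, 9.03 and 8.71 in tumors 1, 2 and 3. In the 6 glands it lay between 7.90 and 9.23. The lines lay below every tissue array, and 15 of the 33 markers were below the floor in all lines.

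Ctss, the lysosomal protease cathepsin S of antigen-presenting cells, had the largest fall of a listed gene. It was below the floor in all 3 lines and had signals of 3548, 3618 and 4598 in tumors 1, 2 and 3. It was at least 67.8-fold lower in the lines, a log2 difference of -6.08 ± 0.22 (SE, adjusted p = 7.21e-05). The complement component C1q is made by macrophages from the products of C1qa, C1qb and C1qc. C1qc was below the floor in all lines and had signals of 1867, 1447 and 1795 in the tumors, at least 29.5-fold lower (adjusted p = 0.000186). C1qa was also below the floor in all lines, with 626, 2129 and 2182 in the tumors (at least 24.8-fold lower, adjusted p = 0.00513). C1qb fell by 4.41 ± 0.24 on the log2 scale (adjusted p = 0.00034).

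The defining myeloid markers moved the same way. Tyrobp, a signalling adaptor of myeloid receptors, had signals of 80.3 in ME-A, below the floor in ME-B and 91.3 in ME-B-T/t, against 1045, 1142 and 1357 in the tumors. It fell by 3.97 ± 0.27 on the log2 scale (adjusted p = 0.000983). Ptprc, which encodes the leukocyte antigen CD45, was below the floor in all lines and had signals of 862, 488 and 483 in the tumors, at least 10.2-fold lower (adjusted p = 0.00253). Csf1r, the receptor for macrophage colony-stimulating factor, kept a signal in every line, 244 in ME-A, 202 in ME-B and 261 in ME-B-T/t, against 2385, 2088 and 1627. Its difference was -3.10 ± 0.24 (adjusted p = 0.0014). Cd68, a lysosomal protein of macrophages, fell from between 360 and 504 in the tumors to between 67.5 and 106.8 in the lines (adjusted p = 0.00808). With any 1 array left out, 16 to 24 of the 27 tested myeloid markers were lower.

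Some genes on the myeloid list followed another pattern. Cd14, a receptor for bacterial lipopolysaccharide, had a signal of 2635 in ME-A, within the tumor range of 1726 to 4638, and 540 and 241 in ME-B and ME-B-T/t. S100a8, a calcium-binding protein abundant in neutrophils, had 580 in ME-A, below the floor in both ME-B lines, and 581, 1744 and 198 in the tumors. Neither passed with all lines (adjusted p = 0.308 and 0.355), and both did without ME-A (0.0096 and 0.032). These markers were therefore not low in every line that lacked Ptprc signal.

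MHC class II genes, which serve antigen presentation to helper T cells, fell with the myeloid markers. Of 7 genes with a probe set, 5 were tested and 3 were lower. These 3 reached the test through the tumors alone, so they had to be lower. H2-Aa had a signal of 68.5 in ME-B and was below the floor in ME-A and ME-B-T/t, against 3239, 4412 and 676 in tumors 1, 2 and 3 (log2 difference -5.13 ± 0.66, adjusted p = 0.0106). Cd74, the invariant chain, had 104.7, 89.9 and 139.0 in the lines and 3264, 3960 and 636 in the tumors (-4.21 ± 0.67, adjusted p = 0.0229). H2-Ab1 was below the floor in all lines and had 1233, 1478 and 449 in the tumors, at least 16.3-fold lower (adjusted p = 0.00659). Tumor 3 was the lowest tumor for each. Without tumor 1, H2-Ab1 alone passed, at 0.0437, and H2-Aa and Cd74 had 0.0611 and 0.116. Without ME-B 1 gene passed, and with no filter on dim genes none did.

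Lymphocyte markers left little to compare. The T and NK cell list had 20 genes with a probe set, of which 3 were tested, and the B and plasma cell list had 14, of which 4 were tested. Cd3e, a subunit of the T cell receptor complex, was below the floor in all lines and in tumors 2 and 3, and had a signal of 77.0 in tumor 1. Cd79a and Cd79b, the signalling chains of the B cell receptor, were below the floor in all tumors. The only tested gene of either list that was lower was Thy1, which is also on the fibroblast list, with 69.3, 88.8 and 114.3 in the lines and 1067, 527 and 381 in the tumors (-2.75 ± 0.42, adjusted p = 0.0202). Thy1 reached the test through the tumors alone, so it had to be lower, and it did not pass without tumor 1 (adjusted p = 0.0522).

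Endothelial markers were lower but dim in the tumors too. Of 24 with a probe set, 12 were tested and 5 were lower, with none higher and a median difference of -1.59. The 5 were among 6 that reached the test through the tumors alone, so their direction was fixed by the filter. With no filter, 2 of the 24 were lower. Sox18, a transcription factor of endothelial cells, was below the floor in all lines and had 250, 185 and 206 in the tumors, at least 3.69-fold lower (adjusted p = 0.0114). Cdh5, the cadherin of endothelial junctions, had signals between below the floor and 78.6 in the lines and of 375, 175 and 228 in the tumors (-1.93 ± 0.35, adjusted p = 0.038). Pecam1 was not tested, with 58.3 as the highest line and 86.7 as the lowest tumor. Kdr, a receptor for vascular endothelial growth factor, overlapped between the groups, with 105.7 to 179.7 in the lines and 108.6 to 316.2 in the tumors (adjusted p = 0.542). Without tumor 1 none of the 5 passed, with adjusted p from 0.0541 for Sox18 to 0.107 for Emcn. None passed without ME-B either, 1 passed without ME-B-T/t and 1 without tumor 2.

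**Figure D2:**
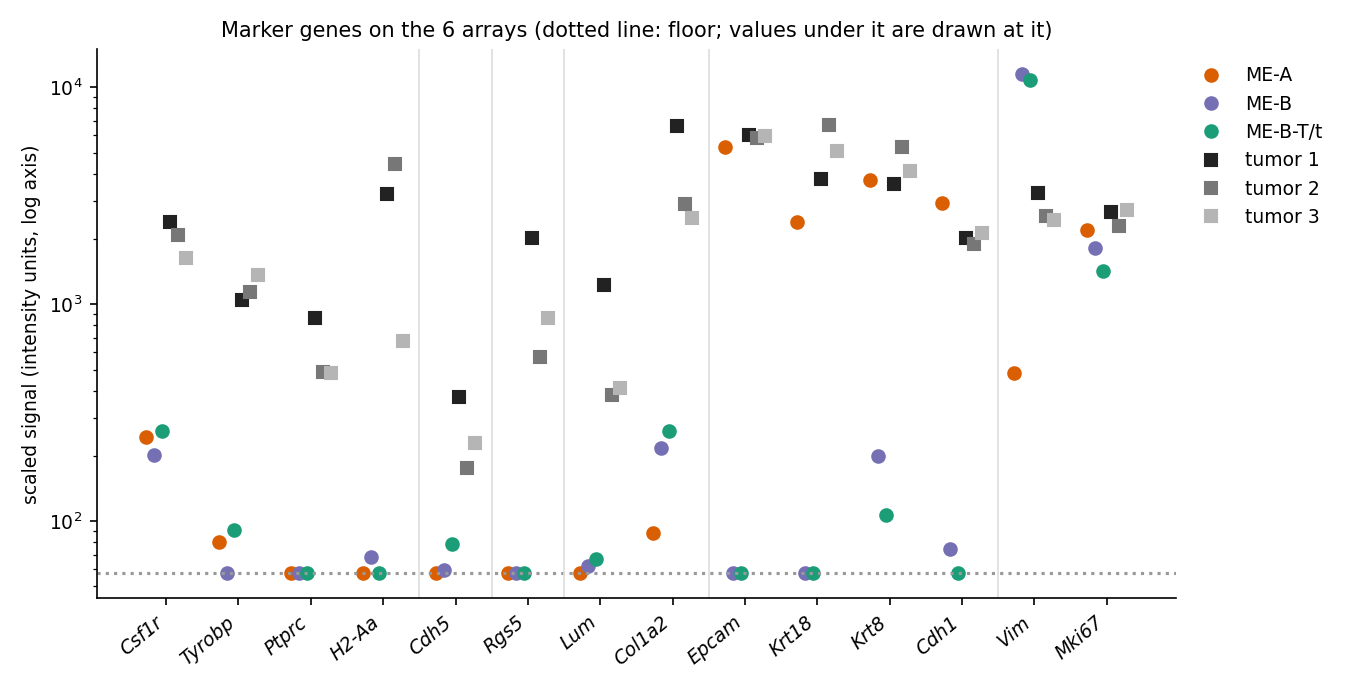
Scaled signal of 14 genes (log axis) on each array. The markers of leukocytes, vessels, pericytes and fibroblasts drawn here are low in all 3 lines. Pdgfrb, Pdgfra and Kdr, other markers of these cell types, are not drawn and overlapped between lines and tumors. Epcam, Krt18, Krt8 and Cdh1 are low in both ME-B lines and, in ME-A, lie between 2393 and 5308.

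Fibroblast and matrix genes separated the lines. The mean log2 level of 28 genes of the fibrillar and basement membrane matrix was 7.0 in ME-A, 9.22 in ME-B and 9.91 in ME-B-T/t, against 10.35, 9.52 and 9.22 in the tumors. Of 26 tested, 14 lay at least 4-fold below the lowest tumor in ME-A, 7 in ME-B and 5 in ME-B-T/t. Beside these shares stand 1.85% of all genes tested for ME-A, 3.35% for ME-B and 2.85% for ME-B-T/t. The median difference from the tumors was -2.85 in ME-A and 0.36 and 0.74 in the ME-B lines, so the list median had opposite signs in ME-A and the ME-B lines.

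A small group of matrix genes was low in all 3 lines, and 5 of the 26 passed. All but Col1a2 reached the test through the tumors alone. Col1a2, a chain of type I collagen, had 88.1 in ME-A, 216 and 260.5 in the ME-B lines, and 6652, 2909 and 2503 in the tumors (-4.42 ± 0.52, adjusted p = 0.00774). Fstl1, a secreted glycoprotein related to follistatin, was below the floor in all lines and had 2105, 664 and 724 in the tumors, at least 17.5-fold lower (adjusted p = 0.00607). Lox, which cross-links collagen, had 81.5, 82.1 and 88.8 in the lines and 974, 481 and 599 in the tumors (-2.96 ± 0.31, adjusted p = 0.00513). Nid1 of the basement membrane (adjusted p = 0.0205) and Col15a1 (0.0444, and 0.133 without tumor 1) were the others. Leaving out ME-B, ME-B-T/t or tumor 2 gave 3 lower genes each, and fitting with no filter on dim genes gave 1.

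Other matrix genes were below the floor in ME-A and had signal in both ME-B lines. Sparc, a matrix glycoprotein, was below the floor in ME-A and had 7114 in ME-B and 10257 in ME-B-T/t, above 6878, 3054 and 2683 in the tumors. Col5a2 was below the floor in ME-A, with 5535 and 7163 in the ME-B lines and 2416, 1379 and 1309 in the tumors. Col3a1 was below the floor in ME-A, with 790 and 2697 in the ME-B lines and 6790, 2549 and 2852 in the tumors. Col1a1, the other chain of type I collagen, was below the floor in ME-A, with 142.7 in ME-B, 1323 in ME-B-T/t and 4334, 1337 and 1039 in the tumors. Col3a1 and Col1a1 were thus below every tumor in ME-B too. None of these passed with all lines. Without ME-A, 8 of the 26 were higher and 6 lower, with Col5a2 at 1.95 (adjusted p = 0.00674), Loxl1 at 2.49 (0.00745) and Col12a1 at 3.17 (0.0106) among the higher. Over all genes tested in that fit, 3.62% were higher and 7.38% lower.

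Markers of fibroblasts and pericytes split likewise. Of 20 fibroblast markers, 13 were tested and 4 were lower, with none higher. The 4 reached the test through the tumors alone, so they had to be lower. Lum, a small proteoglycan that binds collagen, had signals from below the floor to 66.9 in the lines and 1223, 381 and 409 in the tumors (-3.21 ± 0.46, adjusted p = 0.0162). Dcn, its relative decorin, was below the floor in all lines and had 2952, 456 and 664 in the tumors, at least 16.8-fold lower (adjusted p = 0.0232). Serping1, the inhibitor of complement C1 proteases, also fell (-3.17 ± 0.42, adjusted p = 0.0124). Tumor 1 had the highest signal of each, and all 3 also passed without it. Leaving out ME-B, or fitting with no filter on dim genes, gave no lower fibroblast marker, and leaving out ME-B-T/t gave 1. Pdgfra, a growth factor receptor of fibroblasts, had by contrast 434 and 849 in the ME-B lines and was below the floor in ME-A, against 740, 217 and 99.7 in the tumors.

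Of 16 pericyte and smooth muscle markers 11 were tested and 1, Rgs5, was lower, and it too reached the test through the tumors alone. This regulator of G protein signalling in pericytes was below the floor in all lines and had 2018, 574 and 860 in the tumors, at least 17.4-fold lower (adjusted p = 0.00607). Pdgfrb, the receptor that defines pericytes, was below the floor in ME-A, and had 1144 and 1571 in the ME-B lines and 314, 227 and 186 in the tumors. Acta2, the smooth muscle actin, had 234 in ME-A, 5095 and 10535 in the ME-B lines and 3172, 1900 and 1078 in the tumors. Without ME-A both were higher (adjusted p = 0.00316 and 0.0357). Adipocyte (6 tested of 17), skeletal muscle (4 of 23) and erythroid and platelet markers (1 of 7) had no gene that passed. Adipoq, the adipocyte hormone adiponectin, had 1945 in tumor 1, 87.7 in tumor 2 and was below the floor in tumor 3 and all lines.

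Luminal epithelial markers separated ME-A from the ME-B lines. No luminal marker of 32 tested passed with the lines as 1 class, although the median difference was -2.39. In ME-A, 26 of the 32 lay within or above the range of the tumors, as did 5249 of all 7345 genes tested. In that line 1 luminal marker lay at least 4-fold below the lowest tumor. In ME-B 22 lay that far below, and in ME-B-T/t 24. Of all genes tested, 1.85% lay that far below in ME-A, 3.35% in ME-B and 2.85% in ME-B-T/t. The median difference from the tumors was 0.32 in ME-A, -3.90 in ME-B and -3.75 in ME-B-T/t. All 32 had at least 1 line above the pooled median, but for Epcam, Krt18 and Cdh1 that line was ME-A alone. A gene with every tumor but no ME-B line above that median had to be lower without ME-A, on this and other lists. Without ME-A, 25 of the 32 were lower, with a median of -3.77 and none higher, against 7.38% lower over all genes tested. That fit has 2 arrays of related lines against 3 tumors.

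The upstream sequences of 3 defining luminal genes are shown because these genes are bright in ME-A and had a signal of at most 199 in the ME-B lines. Cdh1 had the same pattern but no promoter entry, so it is not shown. The sequences are the 250 bases before the annotated start of transcription, read 5′ to 3′ on the gene's strand, from RefSeq on build GRCm38.p6. Krt8 lies at chr15:102004343-102004592 on the minus strand, Krt18 at chr15:102027966-102028215 on the plus strand, and Epcam at chr17:87635729-87635978 on the plus strand. Capitals mark the E-box hexamer CAGGTG or its reverse complement CACCTG, the core that zinc finger factors such as Zeb1 and Snai1 are known to bind.
Krt8: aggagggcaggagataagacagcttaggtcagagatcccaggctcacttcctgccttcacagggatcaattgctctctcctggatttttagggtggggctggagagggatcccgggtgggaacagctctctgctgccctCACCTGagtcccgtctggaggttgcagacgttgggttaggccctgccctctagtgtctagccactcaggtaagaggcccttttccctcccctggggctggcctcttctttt
Krt18: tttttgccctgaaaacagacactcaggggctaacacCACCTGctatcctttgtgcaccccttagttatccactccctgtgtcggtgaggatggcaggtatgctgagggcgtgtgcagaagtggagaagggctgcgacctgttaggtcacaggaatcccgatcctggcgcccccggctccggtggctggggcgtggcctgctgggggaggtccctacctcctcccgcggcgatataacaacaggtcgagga
Epcam: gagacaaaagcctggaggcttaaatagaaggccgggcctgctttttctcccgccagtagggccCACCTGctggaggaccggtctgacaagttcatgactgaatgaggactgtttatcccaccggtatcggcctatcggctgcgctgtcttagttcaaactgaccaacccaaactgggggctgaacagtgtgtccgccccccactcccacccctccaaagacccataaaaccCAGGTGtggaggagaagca
Krt8 and Krt18 hold 1 match each and Epcam 2. In windows of 300 bases, which add the 50 bases after the start, 20.2% of all 32851 mouse promoters in the table held a match. Counted by gene, a match lay in 20 of 28 luminal list genes with an entry (71.4%), 12 of 21 cell junction genes (57.1%), 2 of 24 myeloid genes (8.33%) and 20.2% of 6001 genes tested. Of 15 luminal genes with an entry that were low in both ME-B lines, 12 held one (80.0%), a set chosen by its values. The mean GC content was 59.2% for luminal and 61.1% for tested genes, and 47.7% for myeloid genes. A match is a string of letters and not a measured site.

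Epcam, a surface adhesion protein of epithelial cells, had a signal of 5308 in ME-A, below the floor in both ME-B lines, and 5999, 5868 and 5953 in the tumors. Krt18, a simple epithelial keratin, had 2393 in ME-A, below the floor in both ME-B lines, and 3785, 6692 and 5073 in the tumors. Its partner Krt8 had 3749, 199 and 107.1 in the lines and 3577, 5318 and 4130 in the tumors. In each gene ME-A was near the tumors and the ME-B lines lay far below. With all lines the adjusted p was 0.236 for Epcam, 0.154 for Krt18 and 0.236 for Krt8. Without ME-A the differences were -6.69 (2.82e-05), -6.46 (4.76e-05) and -4.88 (0.00025).

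Cdh1, the epithelial cadherin, had 2937 in ME-A, 74.4 in ME-B, below the floor in ME-B-T/t, and 2022, 1892 and 2121 in the tumors. Regulators of the epithelial state had the same order. Esrp1, an epithelial splicing factor, had 1257 in ME-A, below the floor in both ME-B lines, and 1659, 1434 and 1776 in the tumors. Grhl2, a transcription factor of epithelial barrier genes, had 1155, 75.6 and 91.6 in the lines and 947, 922 and 1211 in the tumors. Elf5, a transcription factor of alveolar cells, had 3150 in ME-A, below the floor in both ME-B lines, and 1494, 1901 and 2835 in the tumors. Without ME-A these 4 genes fell by 4.94, 4.81, 3.61 and 5.12 on the log2 scale (adjusted p = 7.38e-05, 7.38e-05, 0.000381 and 0.000166).

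Not all luminal genes followed this order. Gata3, a luminal transcription factor, had 548, 533 and 740 in the lines and 656, 406 and 432 in the tumors. Erbb2 had 346, 313 and 293 in the lines and 371, 408 and 279 in the tumors. Krt19 had 3149, 932 and 107.7 in the lines, and 1488, 1619 and 105.5 in tumors 1, 2 and 3. For these genes lines and tumors overlapped. Esr1 and Pgr, the receptors for estrogen and progesterone, were not tested, and Pgr was below the floor on all 6 arrays.

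Most tested milk genes and a smaller share of the tested cell junction genes went with the luminal markers. Of 25 junction genes tested none passed with all lines, and 9 were lower without ME-A, including Dsg2 of desmosomes (-4.31, adjusted p = 0.000381) and Ocln of tight junctions (-2.62, 0.0065). Of those 9, Cdh1, Cldn3 and Cldn7 are also luminal list genes. ME-A lay within or above the tumor range for 24 of the 25, and for 5249 of all 7345 genes tested. Of 15 milk and secretory genes tested none passed with all lines and 10 were lower without ME-A. In the fit without ME-A, 7.38% of all genes tested were lower. Csn1s1, a casein, had 1790 in ME-A, below the floor in ME-B, 79.6 in ME-B-T/t, and 3238, 5310 and 3426 in the tumors (-5.85 without ME-A, adjusted p = 7.38e-05). Csn2, another casein, was not tested and had its lowest line in ME-A. Its signals were 57.8 in ME-A, 123.5 in ME-B and 107.8 in ME-B-T/t, and 1784, 1139 and 98.7 in tumors 1, 2 and 3. Wap itself had signals of 108.3 to 112.1 in the lines and 90.3 to 119.2 in the tumors, against 1603 or more in every gland. Among 10 tested basal and myoepithelial markers none passed, and Krt5 did not exceed 69.3 on any of the 6 arrays. Krt14, a basal keratin, had 1325 in ME-A, 242.8 in ME-B and below the floor in ME-B-T/t. In tumors 1, 2 and 3 Krt14 had 258.1, 150.7 and below the floor (adjusted p = 0.683). Trp63 was not tested, with below the floor in ME-A, 118 in ME-B, 351.7 in ME-B-T/t and at most 67 in the tumors.

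**Figure D3:**
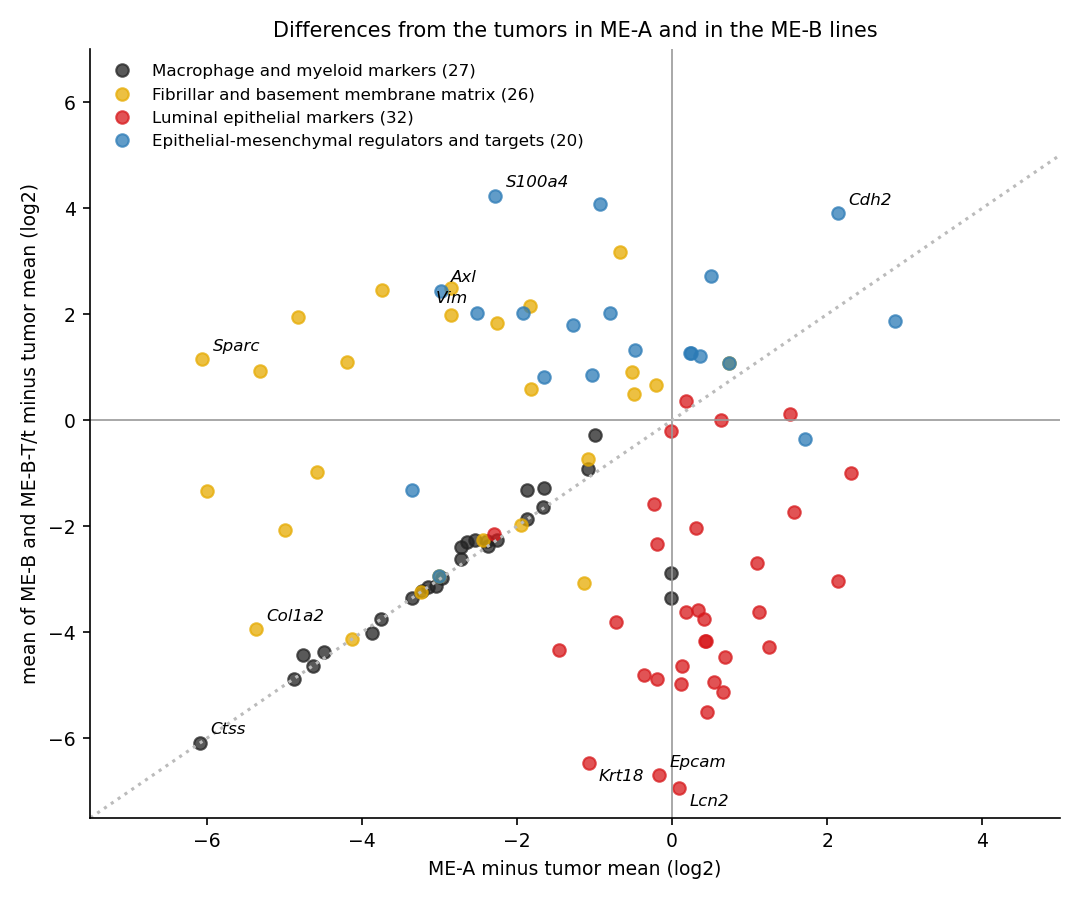
Log2 difference from the tumor mean in ME-A (horizontal) and in the mean of ME-B and ME-B-T/t (vertical) for the tested genes of 4 lists, with the line of equal difference dotted. Most myeloid markers lie on or near that line, and those below the floor in all lines lie on it because the floor sets their values equal. Most luminal markers lie near 0 in ME-A and far below 0 in the ME-B lines. Many matrix and mesenchymal genes lie below 0 in ME-A and above 0 in the ME-B lines.

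Genes of the epithelial-mesenchymal list were high in the ME-B lines. Their mean log2 level over 25 genes was 7.97 in ME-A, 9.81 in ME-B and 10.33 in ME-B-T/t, against 8.67, 8.63 and 8.10 in the tumors. With all lines, Cdh2 and Tgfb2 of 20 tested genes were higher and Lox lower. Tgfb2 reached the test through the lines alone and Lox through the tumors alone, so the filter fixed their directions. Leaving out ME-B, tumor 1 or tumor 2, or fitting with no filter on dim genes, left no gene of this list higher, and leaving out ME-B-T/t or tumor 3 left 1. Without ME-A, 11 were higher and 1 lower, against 3.62% higher and 7.38% lower over all genes tested. Vim, the intermediate filament of mesenchymal cells, had 481 in ME-A, 11496 in ME-B and 10768 in ME-B-T/t, against 3270, 2564 and 2454 in the tumors. ME-A was thus below and the ME-B lines above every tumor. Zeb1, a repressor of epithelial genes, was below the floor in ME-A, with 452.5 and 512 in the ME-B lines and 197, 119.9 and 114.5 in the tumors. S100a4, a calcium-binding protein of motile cells, had 79.6 in ME-A, 7016 and 7599 in the ME-B lines and 522, 610 and 181.8 in the tumors. Without ME-A, the differences were 2.02 for Vim (adjusted p = 0.000778), 1.79 for Zeb1 (0.0147) and 4.24 for S100a4 (0.00208). These genes are also made by fibroblasts. In the ME-B lines the fibroblast list did not move one way. Its mean log2 level over 20 genes was 7.26 in ME-B and 8.25 in ME-B-T/t, against 8.95, 7.60 and 7.61 in the tumors and 6.26 in ME-A. Of its 13 tested genes, 6 in ME-B and 8 in ME-B-T/t lay within or above the tumor range, Pdgfra among them. Of all 7345 genes tested, 4829 in ME-B and 4837 in ME-B-T/t lay there, so the fibroblast counts do not exceed the general share. Lum and Dcn lay below every tumor. The part of these levels in the result was not tested.

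None of the 31 genes higher in all lines was on the 11 lists of non-epithelial cells and matrix, and 27 of them were in none of the 33 lists. Of the 31, 28 lay above all 9 tissue arrays in every line, and 5 were below the floor in all tumors. Ankrd1, a cardiac and muscle ankyrin protein and a target of the YAP pathway, had the largest rise. It had 849 in ME-A, 3082 in ME-B and 1457 in ME-B-T/t, against 80.5, 103.3 and below the floor in tumors 1, 2 and 3 (4.32 ± 0.49, adjusted p = 0.00659). Cdh2, the neural cadherin, had 394, 1382 and 1314 in the lines and below the floor, 68.5 and 183.1 in the tumors (3.32 ± 0.63, adjusted p = 0.0452, and 0.179 without tumor 1). Every line was above every tumor, and for both genes ME-A was the lowest line. Ankrd1 had no tumor above the pooled median, so it reached the test through the lines alone and had to be higher.

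Genes below or near the floor in every tumor also rose. With no tumor above the pooled median, Pax3, Hoxa10, Igf2bp3, Hoxc9 and Gata4 reached the test through the lines alone. They therefore had to be higher. Pax3, a transcription factor of neural crest and muscle precursors, had 408, 605 and 412 in the lines and was below the floor in all tumors, at least 8.13-fold higher (adjusted p = 0.00218). Hoxa10, a homeobox factor, had 357, 307 and 494 in the lines and was below the floor in all tumors, at least 6.59-fold higher (adjusted p = 0.00404). Igf2bp3, an RNA-binding protein of fetal tissues, had 448, 652 and 572 in the lines, and at most 80.7 in the tumors (2.99 ± 0.27, adjusted p = 0.00253). Chosen after their values were seen, Hoxc9, Gata4 and Igf2bp1 rose as well. Hoxc9 was below the floor in all tumors and at least 4.33-fold higher (adjusted p = 0.0245, and 0.108 without tumor 1). Gata4 had 266, 266 and 281 in the lines and 74.3, 77.0 and 64.2 in the tumors (adjusted p = 0.00808).

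Edn1, the vasoconstrictor peptide endothelin, had 400, 397 and 459 in the lines and was below the floor in all tumors, at least 7.27-fold higher (adjusted p = 0.00158). Prss23, a serine protease, had 1277, 1375 and 1741 in the lines and 337, 322 and 129.4 in the tumors (2.59 ± 0.40, adjusted p = 0.0205). Tgfb2, a transforming growth factor, had 910, 465 and 443 in the lines and 110.1, 131.3 and 131.4 in the tumors (2.21 ± 0.33, adjusted p = 0.0196, and 0.0995 without tumor 1). Glipr1 (2.74, adjusted p = 0.0381), Ctse (2.70, 0.0194) and Gadd45g (2.56, 0.0382) completed the 10 largest rises among genes that passed. For Ctse, a cathepsin, the probe sets of the gene differed in sign. Of the 10, Ankrd1, Pax3, Igf2bp3, Edn1, Hoxa10 and Ctse also passed without tumor 1. Only Cdh2, Glipr1 and Prss23 of the 10 had a tumor above the pooled median. The others, and Tgfb2, reached the test through the lines alone, so their direction was fixed by the filter.

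**Figure D4:**
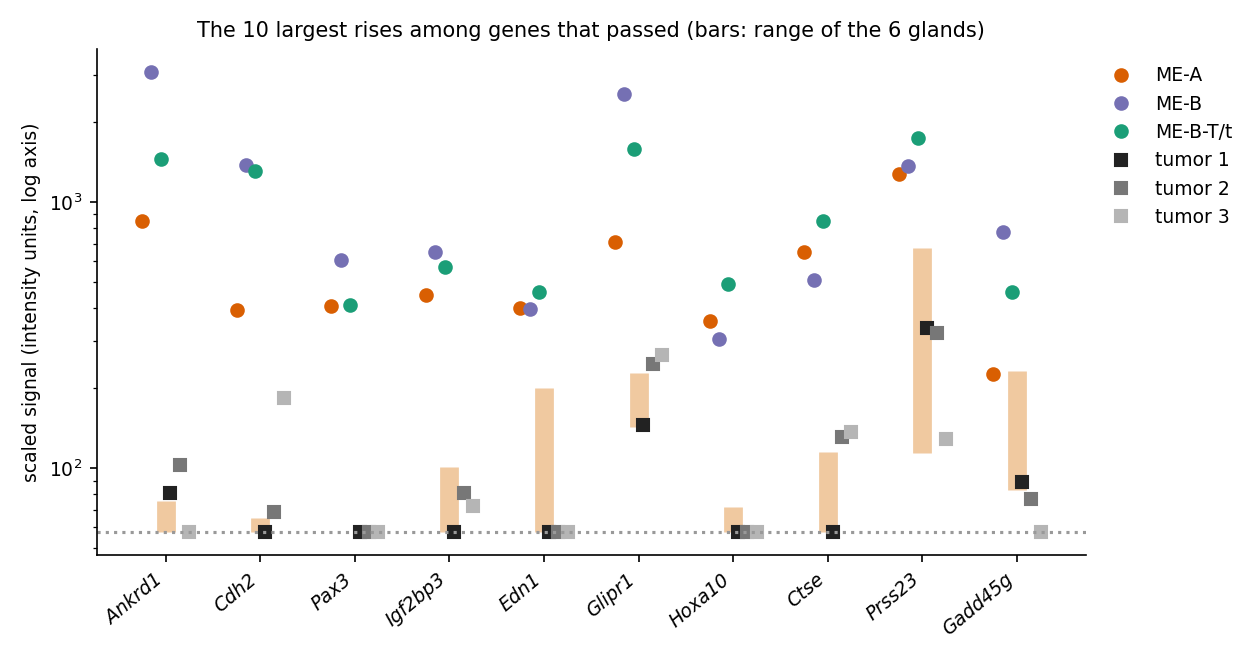
Scaled signal (log axis) of the 10 genes with the largest rise in the lines among those that passed without overlap, on each array, with the range of the 6 lactating glands as bars. Edn1, Pax3 and Hoxa10 lie at the floor in all 3 tumors and above 300 in all 3 lines. Only Cdh2, Glipr1 and Prss23 have a tumor above the pooled median, and the others had to be higher to be tested.

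The serum response, AP-1 and YAP target list, to which Ankrd1 belongs, had 2 of 27 tested genes higher, the other being Tpm1, a tropomyosin of stress fibers, with 2945, 4118 and 5276 in the lines and 1698, 994 and 1146 in the tumors (1.68 ± 0.29, adjusted p = 0.0338, and 0.0589 without tumor 1). The list median was 0.60. Without ME-A, 9 were higher and 1 lower, against 3.62% higher and 7.38% lower over all genes tested. Ccn1, a matricellular YAP target, had 1542 in ME-A, 5389 and 4908 in the ME-B lines and 970, 905 and 1051 in the tumors (2.40 without ME-A, adjusted p = 0.000616). Dusp6, a phosphatase of ERK kinases, was the gene that fell in that fit, with 95.3, 629 and 233.5 in the lines and 3774, 2883 and 1440 in the tumors (-2.71, adjusted p = 0.0159).

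Genes of the cell cycle and of basic metabolism were also compared. None of 51 tested G2/M and chromosome segregation genes and none of 42 G1/S and DNA replication genes passed, with medians of -0.20 and -0.13. Mki67, the proliferation antigen, had 2210, 1825 and 1416 in the lines and 2665, 2300 and 2715 in the tumors, without overlap (-0.51 ± 0.22, adjusted p = 0.293). Top2a, a topoisomerase of dividing cells, had 1954 to 2143 in the lines and 1937 to 2676 in the tumors. No gene passed among 24 p53 targets, 21 RB pathway genes, 30 ribosomal protein genes, 41 genes of oxidative phosphorylation, 22 NRF2 targets, 24 cholesterol and fatty acid genes and 16 Notch genes, and their medians lay between -0.07 and 0.37. Cdkn2a, which encodes p16 and p19ARF, had 565 in ME-A, below the floor in both ME-B lines, and 440, 294 and 181.3 in the tumors (-2.32 without ME-A, adjusted p = 0.0112).

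Stress and metabolic lists showed scattered changes. Of 29 glycolysis and hypoxia genes, Egln3, a prolyl hydroxylase induced by low oxygen, was lower, with 305, 295 and 101.6 in the lines and 2932, 2329 and 1253 in the tumors (-3.29 ± 0.51, adjusted p = 0.0206, and 0.108 without tumor 1). The list median was -0.35. None of 28 amino acid and unfolded protein response genes passed with all lines, with a median of 0.69, and 7 were higher and 2 lower without ME-A. Over all genes tested in that fit, 3.62% were higher and 7.38% lower, so the 2 lower genes are near the general share. Asns, asparagine synthetase, had 1202, 1639 and 3606 in the lines and 834, 728 and 464 in the tumors (1.89 without ME-A, adjusted p = 0.0238). Among genes in no list, the aminoacyl-tRNA synthetases Aars (1.82, adjusted p = 0.0132) and Gars (1.05, 0.0324) were higher with all lines, named here after their values were seen. Neither passed without tumor 1 (0.0596 and 0.12).

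The 11 lists of non-epithelial cells and matrix held 208 genes with a probe set, of which 111 were tested and 23 lay at least 4-fold below the lowest tumor in all 3 lines. Over all 7345 genes tested, 55 lay that far below in all 3 lines. Of the 138 genes lower in the lines, 37 were on a list of non-epithelial cells or matrix, none was on an epithelial list alone, 3 were on other lists alone and 98 were on no list. Of the 37, 16 were below the floor in all lines and 21 had signal in at least 1 line. Most of the 37 had no line above the pooled median, so they reached the test through the tumors alone and had to be lower. The lists do not hold every gene of a cell type. Cd53, Cd52, Lcp1 and Ms4a6d, which are known from leukocytes and were named after their values were seen, are among the 98, each with an adjusted p of at most 0.0128. With no line above the pooled median, they reached the test through the tumors alone and had to be lower. Among the largest falls outside the lists, Apoe, the lipid carrier apolipoprotein E, was below the floor in all lines and had 3154, 3212 and 5818 in the tumors, at least 67.7-fold lower (adjusted p = 0.000186). Cyba, a subunit of the phagocyte oxidase, was at least 33.5-fold lower, and Emb, an adhesion glycoprotein, at least 27.0-fold. Lyz1, a lysozyme gene in no list, was at least 74.3-fold lower. Probe sets may not separate it from the near-identical Lyz2 of the myeloid list, which fell by 4.54 ± 0.28 on the log2 scale. Apoe, Cyba, Emb and Lyz1 also had no line above the pooled median, so their direction was fixed by the filter.

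Some genes fell while every line kept signal. No line was below the floor for 52 of the 138, and every line lay above the pooled median for 14, of which 12 were on no list of non-epithelial cells or matrix. Selenop, a secreted selenium transport protein, had 407, 338 and 697 in the lines and 5034, 2569 and 3897 in the tumors (-3.01, adjusted p = 0.00791). Ldhb, a subunit of lactate dehydrogenase, had 253, 330 and 347 in the lines and 1719, 1326 and 1871 in the tumors (-2.40, adjusted p = 0.00458). Limd2, an adaptor protein, had 996, 913 and 1428 in the lines and 2783, 2588 and 2397 in the tumors (-1.24, adjusted p = 0.0381, and 0.165 without tumor 1). For these 14 genes a lower level in the tumor cells and a share of the tumor signal from other cells cannot be told apart. Pura, another of the 14, had probe sets that differed in sign.

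**Figure D5:**
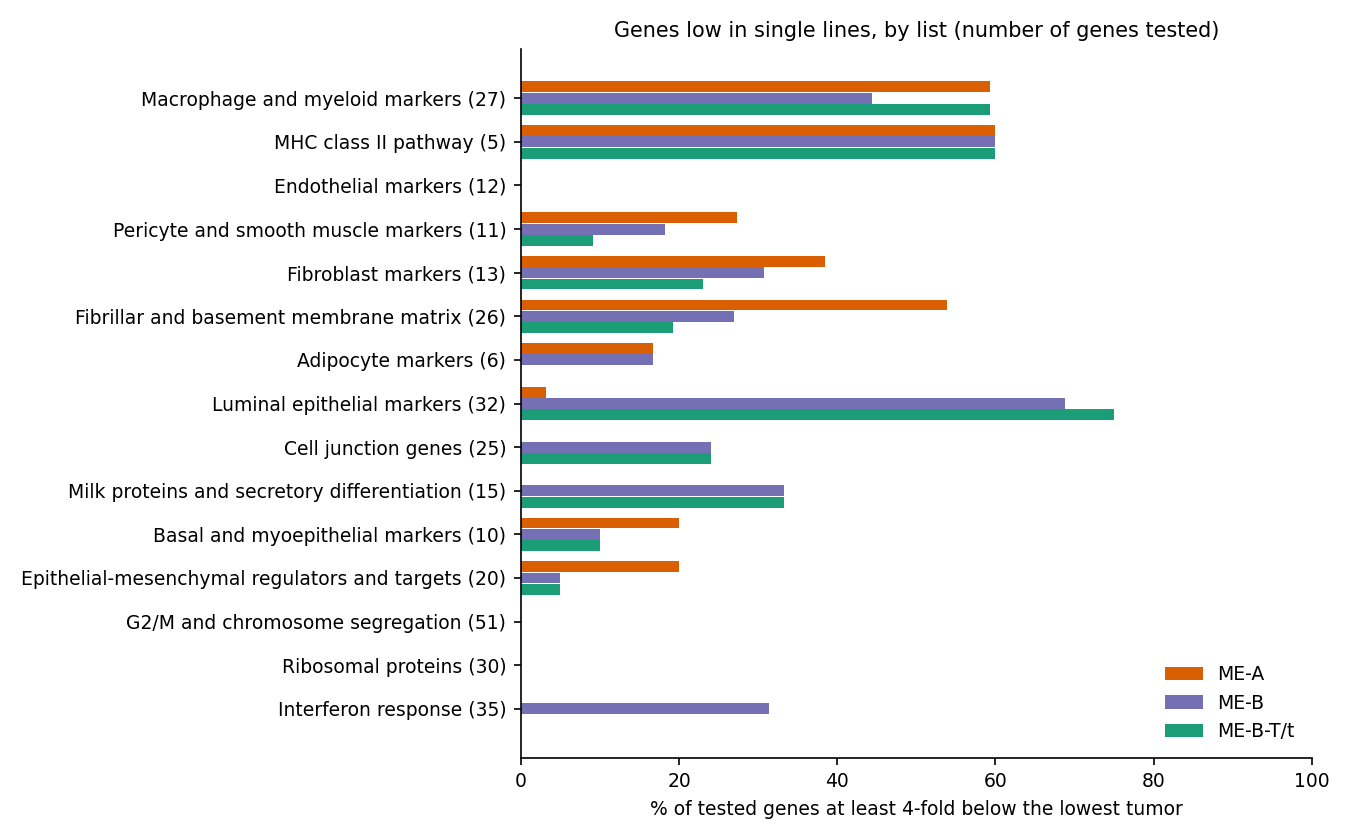
Share of tested genes of each list (horizontal, in %) that lie at least 4-fold below the lowest tumor in each line. The bars for myeloid markers are similar in all lines (16, 12 and 16 of 27), those for luminal markers are long in the ME-B lines (22 and 24 of 32), and only ME-B has one for interferon response genes (11 of 35).

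Single lines were also set against the tumors, with no test. Genes at least 4-fold below the lowest tumor numbered 136 in ME-A, 246 in ME-B and 209 in ME-B-T/t, and 338 in any line. Of these, 55 were shared by all 3 lines and 117 by both ME-B lines without ME-A, while 55 were in ME-A alone, 56 in ME-B alone and 29 in ME-B-T/t alone. Genes at least 4-fold above the highest tumor numbered 21 in ME-A (0.286%), 49 in ME-B (0.667%) and 75 in ME-B-T/t (1.02%), and 105 in any line. All 3 lines shared 5 of them and both ME-B lines shared 26 without ME-A.

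ME-A stood alone in Meg3, an imprinted noncoding RNA, with 6064 against 275 and 264 in the ME-B lines and 300.4 to 485 in the tumors. Btn1a1, the milk fat globule protein butyrophilin, was also high in ME-A, at 1994, against 97.0 and 91.3 in the ME-B lines and 129.4 to 297 in the tumors. Interferon response genes had their lowest mean level in ME-B. Their mean log2 level over 38 genes was 7.23 in ME-B, 9.41 in ME-A and 9.29 in ME-B-T/t, against 9.12, 8.87 and 8.67 in the tumors. Of 35 tested, 11 lay at least 4-fold below the lowest tumor in ME-B and none in the other lines. Over all genes tested, 3.35% lay that far below in ME-B. Gbp2, a guanylate-binding protein induced by interferon, had 59.2 in ME-B, 193.7 in ME-A and 487 in ME-B-T/t, against 840, 729 and 1011.

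Aspn, Col12a1 and Fbln5 were the 3 genes farthest above the highest tumor among those at least 4-fold above it in ME-B-T/t and in no other line. Aspn, a small proteoglycan, had 2741 in ME-B-T/t, 82.7 in ME-B, below the floor in ME-A, and 193.9, 65.1 and 150.3 in the tumors. Col12a1 had 4269 in ME-B-T/t, 1036 in ME-B and 146.6 in ME-A, against 198.4 to 286 in the tumors. Fbln5, an elastic fiber protein, had 5924, 1099 and 1143 in ME-B-T/t, ME-B and ME-A, and 477, 125.3 and 135.0 in the tumors. For Fbln5 every line lay above every tumor, and for Col12a1 both ME-B lines did. Errfi1, an inhibitor of epidermal growth factor receptors, was low in ME-B-T/t at 146.6, against 1277 and 1090 in ME-A and ME-B and 1821 to 3005 in the tumors. With 1 array a line, these differences have no replicate check.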

How the data were processed

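RNA was measured on 12 single-colour arrays of 22690 probe sets. The deposited intensity values are linear, and MAS5 is the tool that the submitters' processing notes name for them. Neither its version nor its scaling target nor detection calls could be read from those notes, so how dim probe sets were treated is unknown. The deposited intensity values had trimmed means within 1.19-fold of each other.

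Arrays were brought to 1 common level (the average of their 2%-trimmed means), a floor was set at the pooled 30th percentile, and log2 was taken. The 64 control probe sets were left out. By the platform's table, 20380 probe sets had 1 gene, 691 several and 1555 none, and only the first were used. The probe set with the highest mean over the 6 arrays stood for its gene. Lines and tumors were compared with limma 3.58.1 in R 4.3.3 (lmFit, eBayes with intensity trend, two-sided, 4 residual degrees of freedom, Benjamini-Hochberg over all genes tested). The fit was tested on simulated data. Single lines were set against the tumors by a 4-fold rule. The number of arrays limits the precision. Plots used Python 3.11.15 with matplotlib 3.10.9.

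The comparison, the 33 gene lists (931 genes, 832 with a probe set) and the naming rule were chosen with earlier results of these data known. The rule named the 10 largest rises and the 10 largest falls among called genes without overlap, the 3 called genes with the smallest p of each list, the defining markers, and 3 genes for each single-line count. Other genes named in the text were chosen after their values were seen. Some genes are on several lists. Alternatives changed the scaling, floor, filter, probe set choice, trend and arrays fitted.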

Additional observations from a re-analysis of the deposited data

How the results depend on the processing

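The counts of 169 genes in all, 31 higher and 138 lower were recomputed under 14 other settings. Quantile normalization, centring on ribosomal protein genes, a lower floor, no floor, the mean of all probe sets and no intensity trend gave totals of 146 to 175 genes. With no filter on dim probe sets, 91 passed of 12393 tested, of which 67 were lower, and 65 were shared with the 169. With all 12 arrays in the fit, 426 passed, 108 higher and 318 lower, and 162 were shared. Leaving out 1 array at a time gave 64 to 808 genes, 7 to 266 higher and 57 to 542 lower. The cause of these changes was not tested.

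Of 44 named genes that passed, 19 kept their call with no filter, and 25 to 44 when 1 array was left out. No named gene changed sign while called. No paired analysis was possible because the labels give no tumor of origin for a line. The signals give no background flags, so a value under the floor is only a bound.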

Other observations

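Lists of secreted proteins also differed between the lines. Of 12 tested complement and acute phase genes, Serping1 alone was lower with all lines, and 6 were lower without ME-A, against 7.38% of all genes tested. Cp, the copper oxidase ceruloplasmin, had a signal of 5377 in ME-A, 306 in ME-B and 178 in ME-B-T/t, against 4381, 6609 and 3108 in the tumors (log2 difference -2.75, adjusted p = 0.298 with all lines and 0.000628 without ME-A). Of 22 growth factor genes, Tgfb2 was higher and Igfbp3 lower. Tgfb2 reached the test through the lines alone and Igfbp3 through the tumors alone, so the filter fixed their directions. Igfbp3, which binds insulin-like growth factors, was below the floor in all lines and had 563, 258 and 667 in the tumors, at least 7.99-fold lower (adjusted p = 0.0104, and 0.0596 without tumor 1). Csf1, the macrophage growth factor whose receptor Csf1r was lower in the lines, had 721, 2703 and 1878 in the lines and 438, 666 and 425 in the tumors (1.63, adjusted p = 0.161 with all lines and 0.0048 without ME-A).

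Of 19 tested matrix proteases and inhibitors, Ctss and Ctsk were lower with all lines. Both reached the test through the tumors alone, so they had to be lower. Ctsk, a cathepsin of osteoclasts and macrophages, was below the floor in all lines and had 313, 447 and 287 in the tumors, at least 5.96-fold lower (adjusted p = 0.00497). Adamts1, a secreted metalloprotease, had 449 in ME-A, 2620 and 3638 in the ME-B lines and 323, 185 and 249 in the tumors (adjusted p = 0.135 with all lines and 0.000628 without ME-A). Of 9 tested imprinted growth genes, Dcn alone was lower with all lines. Plagl1, an imprinted zinc finger factor, had 313 in ME-A, below the floor in both ME-B lines, and 556, 340 and 664 in the tumors (adjusted p = 0.157 with all lines and 0.00183 without ME-A). Peg3, another, had 1105 in ME-A, below the floor in both ME-B lines, and 920, 346 and 382 in the tumors (0.488 and 0.00491).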
